A study of Mus musculus with 6 samples.

Results

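The 10 genes described here encode the T cell receptor complex and the first signalling proteins attached to it: Trac, Trbc2, Cd3g, Cd3d, Cd3e, Cd247, Cd4, Lck, Zap70 and Lat. They were chosen by name and found by their Ensembl identifiers, 10 of the 54446 genes counted, and all 10 passed the filter on low counts. RNA was measured in 6 libraries of regulatory T (Treg) cells from subcutaneous tumours of B16F10, a mouse melanoma line, after CD4 microbead enrichment and a sort for live CD45+ CD4+ Foxp3-GFP+ cells. The 3 libraries titled as controls have the genotype Foxp3CreYthdf2fl/+, so they carry the Cre recombinase driven by Foxp3 and 1 floxed allele. The 3 libraries labelled Ythdf2 cKO have the genotype Foxp3CreYthdf2fl/fl, with the same Cre and both alleles floxed. Ythdf2 encodes a reader of N6-methyladenosine on RNA, and the design asks what its loss in Treg cells changes. The titles also name a cage: cage 1 holds control replicates 1 and 2 and Ythdf2 cKO replicate 1, and cage 2 holds control replicate 3 and Ythdf2 cKO replicates 2 and 3. The labels do not state the age of the mice or that each library came from a separate mouse, so the p-values measure only the spread between these libraries.

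The antigen-binding part of the receptor is a pair of chains, alpha and beta, whose constant regions are encoded by Trac and by Trbc1 or Trbc2. These chains have almost no cytoplasmic part and signal through the CD3 chains (Cd3g, Cd3d and Cd3e) and the zeta chain (Cd247), which carry tyrosine motifs known as ITAMs. The coreceptor CD4 binds MHC class II and brings the kinase Lck to the receptor. Lck phosphorylates the ITAMs, the kinase ZAP-70 docks on them, and ZAP-70 phosphorylates the membrane adaptor LAT, on which the downstream signalling proteins assemble. In Treg cells this signal is required for the cells' suppressive function.

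The libraries held 5602053 to 13602069 counts in genes. Ythdf2 itself was detected in every library and overlapped between the groups: its level was 106 ± 15.9 CPM (counts scaled to the library's size, with the TMM method; SD, n = 3) in the controls and 99.1 ± 8.11 CPM (n = 3) in those labelled Ythdf2 cKO, with a log2 fold change of -0.10 (SE 0.16, 95% interval -0.47 to 0.28) that was not called. The counts cover the whole gene, and the deleted exons are not named in the labels. The sort gene Foxp3 was present at 323 to 606 CPM in all 6 libraries. The summed CPM of 12 melanoma markers was 62.8 to 613 in the libraries of cage 1 and 2885 to 5833 in those of cage 2, and that of the macrophage and monocyte markers was 6.20 to 54.0 and 18.2 to 261. Markers of CD8 and gamma-delta T cells summed to 8.75 to 24.8 CPM and those of NK and innate lymphoid cells to 0.289 to 3.77, with the NK receptor genes Klrb1c and Klra4 at 0 counts in every library. B cell markers summed to 85.9 to 201 CPM, of which Ighm made up 89.1%, dendritic cell markers to 48.1 to 86.6 CPM and fibroblast and endothelial markers to 60.4 to 236 CPM. Mitochondrial ribosomal RNA made up 9.97% to 12% of the gene counts in cage 1 and 18%, 19.2% and 42.6% in cage 2. Control replicate 3 stood apart, with the 42.6% and the highest melanoma and macrophage sums.

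Levels can be compared between genes only per length, here as CPM per kilobase of annotated exon over the 6 libraries. Trac was highest at 384 ± 89.0 (SD, n = 6), and its lowest library, at 252, lay above the highest library of every other member. Trbc2 at 142 ± 30.6 and Cd4 at 140 ± 31.5 followed and could not be ordered, since Trbc2 was the higher of the pair in 3 of 6 libraries. Cd3g had 118 ± 35.2, lower than Cd4 in 5 of 6 libraries. Then came Lck at 98.5 ± 25.9, Cd3e at 81.3 ± 18.5 and Cd3d at 57.3 ± 11.2, in this order in each of the 6 libraries. Lat, at 53.6 ± 14.7, lay below Cd3d in only 4 of 6 libraries, so these neighbours were not separated. Zap70 at 38.8 ± 10.0 and Cd247 at 28 ± 5.58 were the lowest, again in this order in all 6 libraries. Apart from Trac and Trbc2, the ranges of every pair of neighbours overlapped across libraries, although several pairs kept their order within each library. The annotated length includes all isoforms, so a gene with long exons that these cells do not use has its level understated. Trbc1, the other beta chain constant gene, is not a member and stood at 88.0 ± 25.1, so Trbc2 alone is not the whole beta chain level. Reads shared by Trbc1 and Trbc2 may be missing from their counts, and those of Cd247 may be left out or mixed with reads of Pou2f1, as described below.

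**Figure D1:**
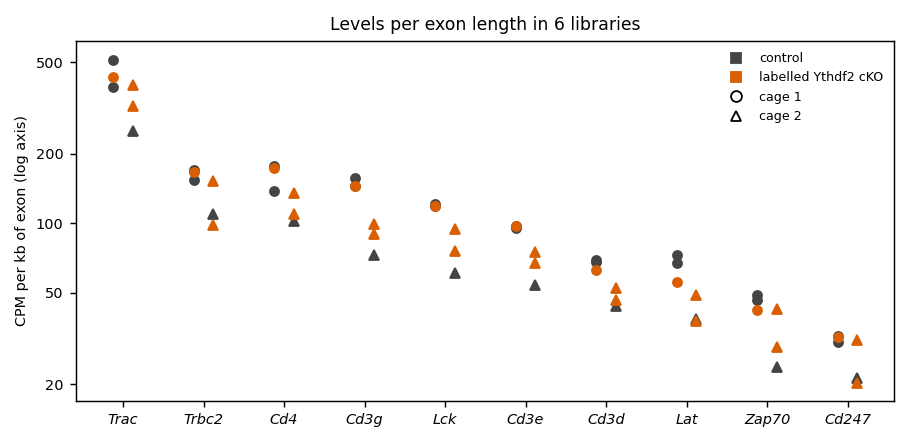
Level of each member per kilobase of annotated exon (y axis, CPM per kilobase, log scale) in each of the 6 libraries, with colour for the group and shape for the cage. Trac lies above every other member in all libraries, the members from Trbc2 to Cd247 form a graded series, and the libraries of cage 2 tend to lie below those of cage 1 for each gene.

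Between the genotypes, none of the 10 members differed. No gene of the whole table passed the edgeR quasi-likelihood test at an adjusted p of 0.05, so 0% of the 13172 tested genes were called, with 213 at an unadjusted p under 0.05, and DESeq2 and limma-voom also called 0, with 279 and 239 at an unadjusted p under 0.05. None of the members was under 0.05 unadjusted. The range of the control libraries overlapped that of those labelled Ythdf2 cKO for all 10 members; over all genes tested, 4.22% were lower and 3.4% higher without overlap. The genotype log2 fold changes, from Lat at -0.33 to Cd4 at 0.01, had a median of -0.06, beside -0.0049 over all genes tested. In a bulk sample, fewer cells of a type and less RNA per cell cannot be told apart.

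Cd4 shows how little separated the genotypes. Its level was 557, 716 and 411 CPM in control replicates 1, 2 and 3 and 704, 546 and 443 CPM in Ythdf2 cKO replicates 1, 2 and 3. The fold change was 0.01 on the log2 scale (SE 0.26, 95% interval -0.60 to 0.61, adjusted p = 1 by edgeR's quasi-likelihood test). Trac, which encodes the constant part of the alpha chain, had a genotype log2 fold change of -0.00085 (SE 0.26, 95% interval -0.62 to 0.62). The largest of the 10 was that of Lat, at 202, 187 and 107 CPM in the controls and 154, 135 and 105 CPM in Ythdf2 cKO replicates 1, 2 and 3. Its log2 fold change was -0.33 (SE 0.27, 95% interval -0.95 to 0.29, adjusted p = 1 by the same test). The value became -0.54 without control replicate 3, -0.17 when control replicate 1 was left out, -0.20 when Ythdf2 cKO replicate 3 was, and -0.08 with cage as a term. The intervals of all 10 members reached at least 0.29 above 0 and at least 0.57 below it on the log2 scale, so a change of that size in either direction was not excluded for any of them.

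The direction of these small values turned when the cage was kept as a term in the fit. The genotype value was then above 0 for 9 of 10 members, with a median of 0.18 beside -0.041 over all genes tested, and none was called, nor was any other gene (0%). Cd3e moved from -0.04 to 0.20 (SE 0.14, adjusted p = 0.59 by edgeR's quasi-likelihood test) and Lck from -0.06 to 0.23 (SE 0.16, adjusted p = 0.60 by the same test). Within cage 1 the library labelled Ythdf2 cKO differed from the mean of the pair of controls by -0.33 (Lat) to 0.15 (Cd4). Within cage 2 both libraries labelled Ythdf2 cKO averaged above the single control, control replicate 3, for all 10 members, by 0.17 (Cd3d and Lat) to 0.58 (Zap70) on the log2 scale. The difference between the cages in the genotype value was above 0 for all 10 members (median 0.40, beside 0.17 over all genes tested), a direction shared by 59.5% of those genes. It passed the edgeR interaction test for none of the members, while 6 genes (0.0456%) passed, 4 above 0 (0.0304%) and 2 below it (0.0152%).

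**Figure D2:**
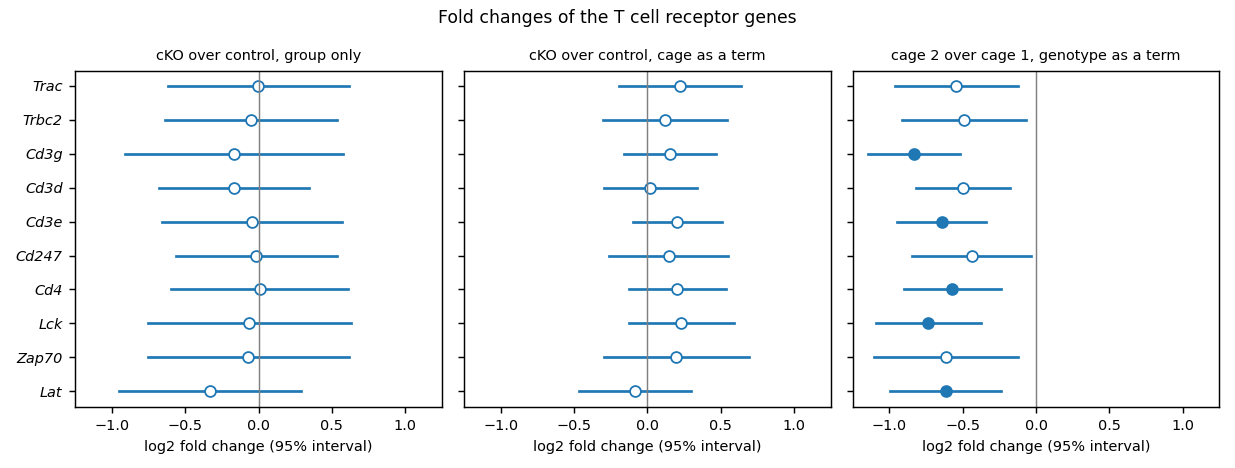
Log2 fold change of each member (x axis) with its 95% interval, for the libraries labelled Ythdf2 cKO over control without (left) and with (middle) the cage as a term, and for cage 2 over cage 1 (right); a filled point marks an adjusted p under 0.05. The genotype intervals in both panels include 0, and all 10 cage values lie below 0, from -0.83 (Cd3g) to -0.44 (Cd247), with 5 filled points.

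The cage separated the members. All 10 were lower in the libraries of cage 2, and 5 of them, Cd3g, Cd3e, Lck, Cd4 and Lat, passed the edgeR test of cage with genotype as a term. Over all 13172 genes, 3.68% were called lower and 7.83% higher in cage 2. The libraries of cage 2 all lay below those of cage 1 for 7 of 10 members (the 5 above and Cd3d and Trbc2), against 12.2% of all genes tested. The median log2 fold change of the members was -0.59, beside 0.013 over all genes tested. All 12 melanoma markers were called higher in cage 2 (median log2 fold change 4.27), as were 5 of the 10 macrophage and monocyte markers tested (median 3.36), 2 of the 4 fibroblast and endothelial markers tested (median 3.45) and 1 of the 4 dendritic cell markers tested, while none of the 6 B cell markers tested was called. Mitochondrial ribosomal RNA was also higher in every library of cage 2, as given above. The part of these cells and of this RNA in the members' difference was not tested. The number of calls depended on single libraries. Without control replicate 3, none of the 10 members passed and their median was -0.37; without control replicate 2 or Ythdf2 cKO replicate 3, 1 passed (Cd3g); without Ythdf2 cKO replicate 1, 3 passed; and without Ythdf2 cKO replicate 2, 8 passed.

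**Figure D3:**
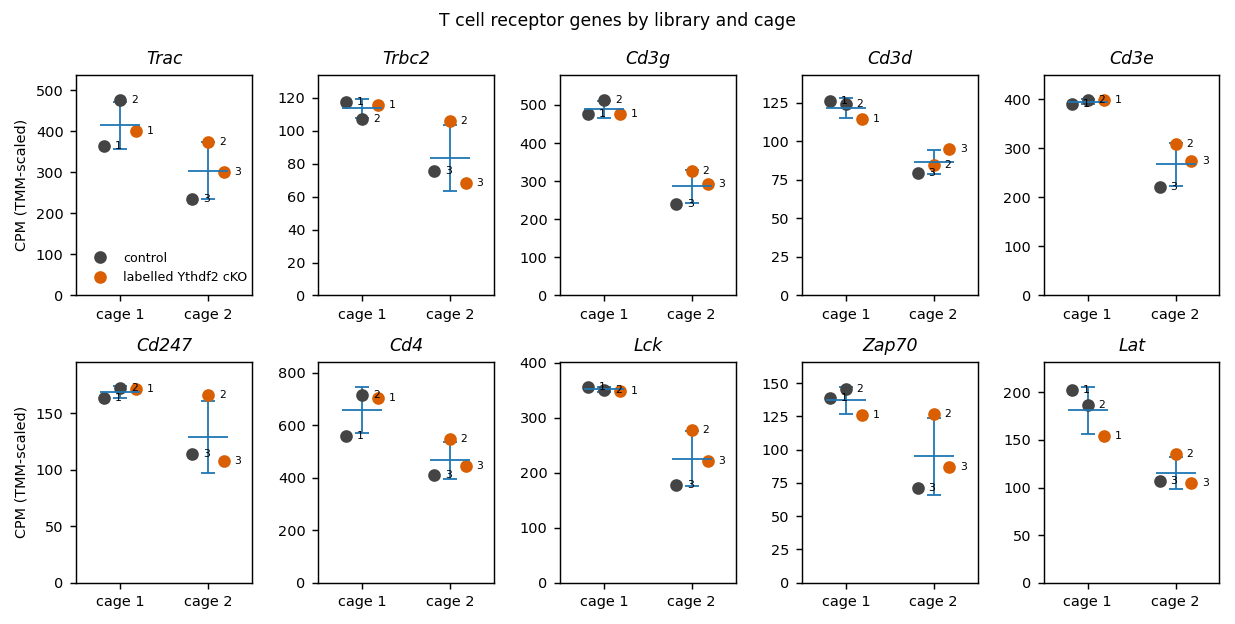
Level of each of the 10 members (y axis, TMM-scaled CPM, starting at 0) in the 3 libraries of cage 1 and the 3 of cage 2, coloured by group and numbered by replicate; the bars give the mean and SD of each cage. The libraries of cage 2 lie below those of cage 1 without overlap for 7 genes, control replicate 3 is the lowest library for 7 of the 10, and Ythdf2 cKO replicate 2 reaches the range of cage 1 for Trac, Cd247 and Zap70.

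Of the antigen-binding chain genes, the members Trac and Trbc2 did not pass the test of cage, whereas Trbc1, outside the members, did, as given below. Trac (ENSMUSG00000076928, mm10 chromosome 14, 54220521 to 54224206, plus strand) had 365, 477 and 402 CPM in control 1, control 2 and Ythdf2 cKO 1, the libraries of cage 1. In cage 2 it had 236, 374 and 302 CPM in control 3, Ythdf2 cKO 2 and Ythdf2 cKO 3. The cages overlapped, because Ythdf2 cKO 2 lay above control 1, and the cage difference of -0.54 on the log2 scale (SE 0.19) did not pass (adjusted p = 0.096 by edgeR's quasi-likelihood test). Trbc2 (ENSMUSG00000076498, chromosome 6, 41546730 to 41548352, plus strand), a beta chain constant gene, had 118, 107 and 116 CPM in the libraries of cage 1 and 75.8, 106 and 68.1 CPM in those of cage 2. These groups were separated by a narrow gap, 107 against 106 CPM, and the difference of -0.49 (SE 0.19) did not pass (adjusted p = 0.14 by the same test).

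Trbc2 has a close copy, Trbc1, 6848 bases upstream (ENSMUSG00000076490, chromosome 6, 41538218 to 41539881, plus strand), and a beta chain uses either of them. Their coding exons are compared here because reads from the shared stretches fit both genes. Reads not uniquely aligned were tallied apart from the genes, so such reads may be missing from both counts. Of 518 coding bases 23 differ (95.56% identical), and exon 1 differs at 1 of 375 coding bases, whereas exon 3 differs at 15 of 107. Of the 100-base windows of the Trbc2 transcript, 30.9% also occur unbroken in Trbc1. The lines give, 5′ to 3′ on the plus strand from the GENCODE M21 transcripts, the stretch around the only difference of exon 1 and the whole of exon 3, with the differing bases in capitals.
Trbc1 exon 1, chr6:41538457-41538497: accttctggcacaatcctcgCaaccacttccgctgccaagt
Trbc2 exon 1, chr6:41546969-41547009: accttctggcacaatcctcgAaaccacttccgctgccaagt
Trbc1 exon 3, chr6:41539229-41539335: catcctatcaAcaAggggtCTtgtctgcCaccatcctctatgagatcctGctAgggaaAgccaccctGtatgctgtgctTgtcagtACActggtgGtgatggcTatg
Trbc2 exon 3, chr6:41547772-41547878: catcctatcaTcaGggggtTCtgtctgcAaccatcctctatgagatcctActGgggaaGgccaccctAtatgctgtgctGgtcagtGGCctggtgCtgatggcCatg

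Trbc1 had 78.7, 81.2 and 87.6 CPM in the libraries of cage 1 and 56.3, 46.0 and 45.6 CPM in those of cage 2 (control 3, then Ythdf2 cKO 2 and 3). It was called lower in cage 2 (log2 fold change -0.72, SE 0.16, adjusted p = 0.021 by edgeR's quasi-likelihood test). Of the reads assigned to either gene, Trbc1 took 40.1% to 43.1% in 5 of the 6 libraries. In Ythdf2 cKO replicate 2 it took 30.2% (Wilson 95% interval 28% to 32.5%, 478 against 1104 reads), below the interval of each other library, of which the lowest bound was 37.3%. The intervals cover counting error only, and both genes are uncertain where reads could not be assigned to either copy.

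Of the CD3 chains, Cd3g and Cd3e passed the test of cage and Cd3d did not, and Cd3g had the largest cage difference of the 10 members. Cd3g, encoding the gamma chain (ENSMUSG00000002033), had 475, 513 and 476 CPM in control 1, control 2 and Ythdf2 cKO 1. In cage 2 it had 239, 326 and 293 CPM in control 3, Ythdf2 cKO 2 and Ythdf2 cKO 3. The highest library of cage 2 lay well under the lowest of cage 1, and the log2 fold change was -0.83 (SE 0.14, 95% interval -1.15 to -0.52, adjusted p = 0.0065 by edgeR's quasi-likelihood test). Cd3e, encoding the epsilon chain (ENSMUSG00000032093), had 390, 399 and 398 CPM in the libraries of cage 1 and 221, 308 and 274 CPM in those of cage 2. The libraries of cage 1 were almost level and lay above all of cage 2, with a log2 fold change of -0.64 (SE 0.14, adjusted p = 0.018 by the same test). Cd3d, encoding the delta chain (ENSMUSG00000032094), had 126, 124 and 114 CPM against 79.6, 84.7 and 94.9 CPM. Its groups did not overlap either, and its log2 fold change of -0.50 (SE 0.14) narrowly missed the threshold (adjusted p = 0.052 by the same test).

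The 3 CD3 genes lie within 40056 bases of mm10 chromosome 9. Cd3g (44969572 to 44980431, minus strand) and Cd3d (44981786 to 44987339, plus strand) point away from each other, with their gene bounds 1354 bases apart. Cd3e (44998740 to 45009627, minus strand) lies a further 11400 bases on. The 250 bases upstream of the RefSeq starts of these 3 genes (table of build GRCm38.p6, the sequence of mm10) are given because the genes are neighbours that were lower together in cage 2. They run 5′ to 3′ along the gene. Capitals mark a match on either strand to GGAAGT, an ETS-type sequence, or TGTGGT, a RUNX-type sequence, and matches may overlap. Of 32851 RefSeq windows of this length, 19.7% hold the first and 14% the second.
Cd3g, chr9:44980432-44980681, minus strand: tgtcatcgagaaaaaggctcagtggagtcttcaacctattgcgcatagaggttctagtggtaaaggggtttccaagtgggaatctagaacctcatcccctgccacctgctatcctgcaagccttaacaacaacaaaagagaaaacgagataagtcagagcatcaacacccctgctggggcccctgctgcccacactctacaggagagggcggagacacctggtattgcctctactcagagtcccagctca
Cd3d, chr9:44981536-44981785, plus strand: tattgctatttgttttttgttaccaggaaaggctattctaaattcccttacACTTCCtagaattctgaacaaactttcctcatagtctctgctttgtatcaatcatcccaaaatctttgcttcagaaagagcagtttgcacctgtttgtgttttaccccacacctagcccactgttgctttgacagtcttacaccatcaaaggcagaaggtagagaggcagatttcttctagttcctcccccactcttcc
Cd3e, chr9:45009612-45009861, minus strand: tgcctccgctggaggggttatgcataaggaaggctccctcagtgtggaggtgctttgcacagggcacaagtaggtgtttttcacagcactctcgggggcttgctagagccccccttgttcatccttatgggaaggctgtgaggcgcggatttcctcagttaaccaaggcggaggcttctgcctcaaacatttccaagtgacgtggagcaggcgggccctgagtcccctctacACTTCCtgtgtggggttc

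The Cd3d and Cd3e windows each held 1 match to GGAAGT, on the strand opposite to the gene, 199 and 18 bases upstream of the start. The Cd3g window held no match to GGAAGT or TGTGGT. Of the members, 7 had an entry in the table, with 10 windows in all, of which 6 held GGAAGT and 2 TGTGGT. Only these exact letters were searched, so shorter or differing forms of such sites are not marked. These matches describe the letters and no binding was measured.

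Cd247, the zeta chain gene (ENSMUSG00000005763, chromosome 1, 165788681 to 165877277, plus strand), had 163, 172 and 171 CPM in the libraries of cage 1. In cage 2 it had 114 and 108 CPM in control 3 and Ythdf2 cKO 3, but 166 CPM in Ythdf2 cKO 2, within the range of cage 1. Its log2 fold change of -0.44 (SE 0.18) was the smallest of the 10 and did not pass (adjusted p = 0.16 by edgeR's quasi-likelihood test). Of its 5329 annotated exonic bases, 56.4% lie opposite exons of Pou2f1, and no source used here gives the strand setting of the counting. Reads over these bases may therefore have been left out as ambiguous or mixed with those of Pou2f1. The coreceptor gene Cd4 (ENSMUSG00000023274, chromosome 6, 124864692 to 124888221, minus strand) averaged 659 ± 88.3 CPM in cage 1 and 467 ± 70.3 CPM in cage 2 (SD, n = 3 each). Its libraries, given above, did not overlap between the cages, the closest being control 1 at 557 and Ythdf2 cKO 2 at 546 CPM. The log2 fold change was -0.57 (SE 0.15, adjusted p = 0.039 by the same test).

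Of the kinases, Lck passed and Zap70 did not. Lck (ENSMUSG00000000409, chromosome 4, 129548344 to 129573641, minus strand), which phosphorylates the ITAMs, had 356, 350 and 349 CPM in the libraries of cage 1. In cage 2 it had 178, 277 and 222 CPM in control 3, Ythdf2 cKO 2 and Ythdf2 cKO 3. The libraries of cage 1 were almost level and all of cage 2 lay below them, with a log2 fold change of -0.73 (SE 0.16, 95% interval -1.09 to -0.38, adjusted p = 0.020 by edgeR's quasi-likelihood test). Zap70 (ENSMUSG00000026117, chromosome 1, 36761798 to 36782818, plus strand), which docks on the phosphorylated ITAMs, had 139, 146 and 126 CPM in cage 1 and 71.4, 127 and 86.7 CPM in cage 2. Ythdf2 cKO 2 lay just above Ythdf2 cKO 1, and the log2 fold change of -0.61 (SE 0.22) did not pass (adjusted p = 0.11 by the same test). Lat (ENSMUSG00000030742, chromosome 7, 126363824 to 126369570, minus strand), the adaptor that ZAP-70 phosphorylates, fell from 181 ± 24.5 CPM in cage 1 to 115 ± 16.8 CPM in cage 2 (SD, n = 3 each). Its log2 fold change was -0.62 (SE 0.17, adjusted p = 0.047 by the same test), close to the threshold.

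The cage difference pointed the same way within each genotype, where 1 library stands on one side. Among the controls it ran from -1.05 (Cd3g) to -0.56 (Cd247) on the log2 scale, with only control replicate 3 in cage 2. Among the libraries labelled Ythdf2 cKO it ran from -0.62 (Cd3g) to -0.24 (Zap70), with only replicate 1 in cage 1. The value among the controls was the larger for all 10 members, which restates the interaction given above and was called for none of them.

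Because a ratio of genes within a library does not depend on the scaling between libraries, each member was also divided by the summed counts of Cd3d, Cd3e and Cd3g of its own library. The Lck ratio was 0.359, 0.337 and 0.353 in the libraries of cage 1 and 0.330, 0.385 and 0.335 in those of cage 2. Its highest library was 1.17 times its lowest, whereas in CPM Lck differed 2.00-fold. Zap70 spanned 1.39-fold as a ratio and 2.04-fold in CPM, Trac 1.41-fold and 2.03-fold, and Lat 1.31-fold and 1.93-fold. The span narrowed less for Cd4 (1.35-fold and 1.74-fold), Trbc2 (1.44-fold and 1.73-fold) and Cd247 (1.42-fold and 1.59-fold). The Lat ratio was 0.204, 0.180 and 0.197 in the controls and 0.156, 0.188 and 0.158 in those labelled Ythdf2 cKO. For Cd4 the ratio ran from 0.562 in control 1 to 0.761 in control 3, and for Trbc2, with the widest span of the members, from 0.103 to 0.148, or 1.44-fold. The ratios of all 7 members outside the CD3 chains overlapped between the cages and between the genotypes. The mean log2 ratio of cage 2 minus that of cage 1 was 0.25 for Cd247, 0.20 for Trac and 0.19 for Trbc2. It was 0.16 for Cd4, 0.09 for Zap70, 0.01 for Lat and -0.0023 for Lck. Against Cd3e alone, the Lat ratio no longer overlapped between the genotypes, at 0.468 to 0.519 in the controls and 0.382 to 0.438 in those labelled Ythdf2 cKO. Lat was the only member with such a gap against Cd3e. How often the ratios of other genes separate the genotypes was not counted, and the gap was not tested. The ratio of Foxp3 to the same sum, 0.451 to 0.613, spanned 1.36-fold.

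Within the CD3 sum, the shares of the chains were also compared between the cages. Cd3g made up 0.480, 0.495 and 0.482 of the sum in the libraries of cage 1 and 0.444, 0.454 and 0.443 in those of cage 2. The share of Cd3e was 0.393, 0.385 and 0.403 in cage 1 and 0.409, 0.429 and 0.414 in cage 2. Neither overlapped between the cages, Cd3g being lower and Cd3e higher in cage 2, and with 3 libraries a side no test was made. The shares make up the whole sum, so a lower share of Cd3g raises the rest, and these gaps are not separate results. How often the shares of other genes separate the cages was not counted. The share of Cd3d, 0.116 to 0.147, overlapped.

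**Figure D4:**
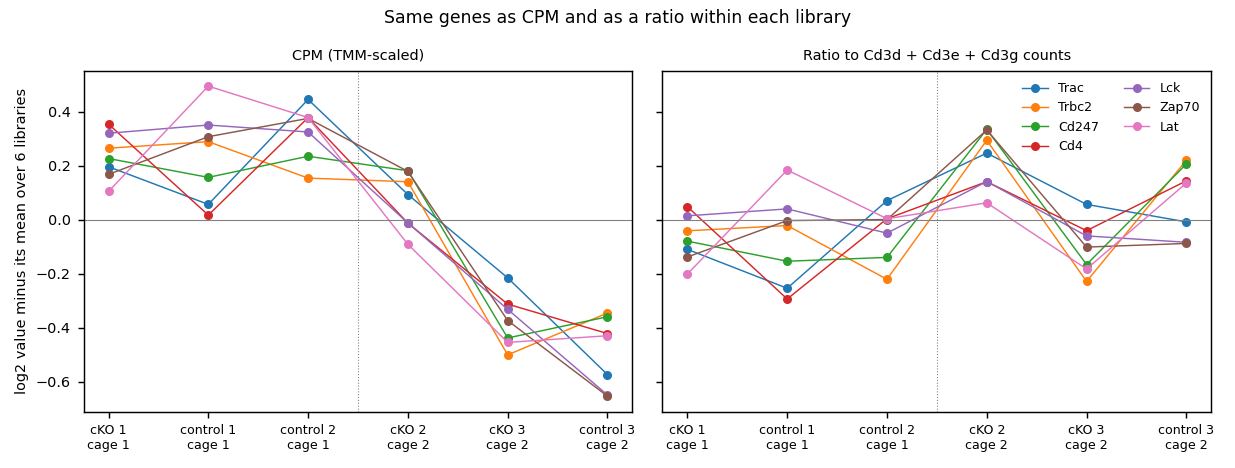
The 7 members outside the CD3 chains in the 6 libraries, ordered by cage, as log2 TMM-scaled CPM (left) and as the log2 ratio of their counts to the summed Cd3d, Cd3e and Cd3g counts of the same library (right), each minus its mean over the libraries. On the left the lines drop from cage 1 to control 3 or Ythdf2 cKO 3 in cage 2; on the right the values of each gene overlap between the cages, and lines only join the points of a gene.

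No other gene of the receptor pathway was called in the genotype comparison. Of 30 proximal activators and adaptors (kinases, phosphatases and scaffolds that carry the signal on), 14 were above 0 and 16 below, with a median of -0.01 and none called (background 0%). The smallest p-values belonged to Prkcq, a protein kinase C that acts on NF-kB (-0.38, SE 0.22), and to Bcl10, Nck2 and Rasgrp1, none past the threshold. Of 22 proximal brakes (phosphatases, ubiquitin ligases and diacylglycerol kinases that limit the signal), 13 were above 0 and 9 below, with a median of 0.022 and none called. Those with the smallest p-values were Dok1, Ptpn22, Rasa2 and Cd6, at 0.21 to 0.46. Of 12 other receptor chains and coreceptors 9 were tested, with 5 above 0 and 4 below, a median of 0.045 and none called. Those with the smallest p-values were Fcer1g (-2.26, SE 1.17), Syk (1.15, SE 0.90), Trdc (-1.49, SE 1.51) and Trbc1 (-0.27, SE 0.30). Fcer1g, Syk and Trdc were low, at no more than 13.8, 12.9 and 1.94 CPM in any library.

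Between the cages, the lists of activators and of brakes lay lower in cage 2 beside the receptor genes. Of the 30 activators and adaptors 29 were below 0, 15 were called lower and none higher, with a median of -0.58, beside 3.68% called lower over all genes tested. Cd2, an adhesion receptor that supports T cell activation, fell from 698 ± 71.7 to 468 ± 43.7 CPM (SD, n = 3 each; log2 fold change -0.66, adjusted p = 0.0063 by edgeR's quasi-likelihood test). Trat1, an adaptor bound to the receptor complex, fell from 52.4 ± 11.7 to 23.5 ± 1.88 CPM (-1.22, adjusted p = 0.0090 by the same test). The adaptor gene Fyb fell by 0.67 on the log2 scale. Of the 22 brakes all were below 0 and 11 were called lower, also with a median of -0.58. Among them, Rasal3, a Ras GTPase-activating protein, fell from 224 ± 12.8 to 138 ± 19.7 CPM, Cbl, a ubiquitin ligase, from 362 ± 13.2 to 251 ± 45.2 CPM, and Dgka, which removes diacylglycerol, from 317 ± 29.3 to 221 ± 16.2 CPM. Pag1, the membrane adaptor that recruits the Lck inhibitor Csk, fell by 0.76 on the log2 scale. The medians of the signal-promoting genes (-0.58), the signal-limiting genes (-0.58) and the receptor genes (-0.59) lay close together. The 9 tested genes of the other receptor chains and coreceptors were mixed, with 4 above 0, 5 below and a median of -0.28. Of these, Trbc1 and Cd8b1, the CD8 beta chain at a low 14.6 ± 7.38 and 6.25 ± 1.15 CPM, were called lower. Ctla4 differed by -0.50 (SE 0.16) and was not called. Syk, the relative of ZAP-70 found in B and myeloid cells, stood at 3.00 ± 2.95 and 11.6 ± 1.22 CPM and did not pass (1.95, adjusted p = 0.054 by the same test). Foxp3 was called lower by 0.65 (SE 0.12, adjusted p = 0.0091 by the same test), whereas Ythdf2 differed by -0.04 (SE 0.17). All 6 T cell markers were below 0 and 5 were called lower, but Trbc1, Cd2 and Cd6 among them are also in the pathway lists.

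**Figure D5:**
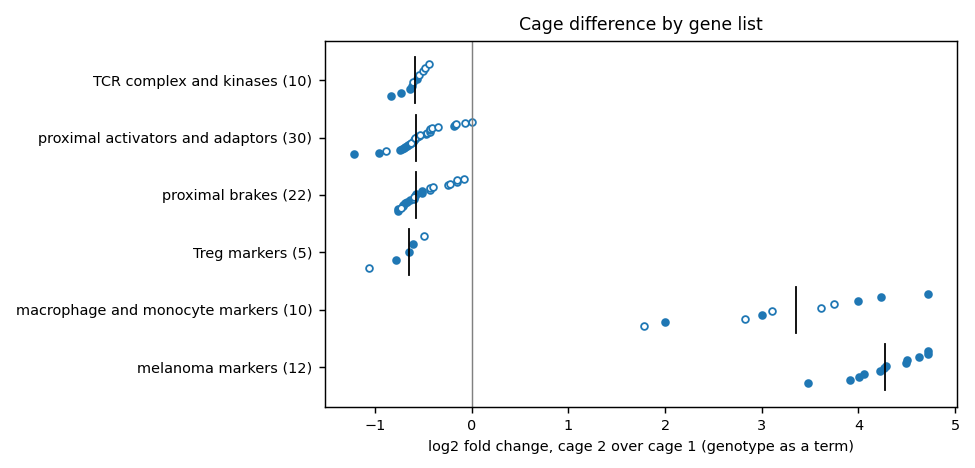
Log2 fold change of cage 2 over cage 1 (x axis, genotype as a term) for each tested gene of the members, of the activators and brakes of the pathway, and of the Treg, macrophage and melanoma markers, with the number of genes in brackets; filled points passed an adjusted p of 0.05 and the vertical bar is the median of the list. The receptor genes, activators and brakes have medians of -0.59, -0.58 and -0.58 and the Treg markers -0.65, and the macrophage and melanoma markers lie above 0 with medians of 3.36 and 4.27.

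On the log2 CPM scale, centred on each gene's mean, the average of the 10 members was 0.26, 0.33 and -0.50 in control replicates 1, 2 and 3 and 0.24, -0.01 and -0.33 in Ythdf2 cKO replicates 1, 2 and 3. Control 3 was the lowest library and Ythdf2 cKO 2 lay between the cages. Cd3e was nearest to this average, with a root mean square distance of 0.057 over the 6 libraries, and Cd3d was farthest, at 0.159. Each member is part of the average, which shortens its own distance, and 7 other tested genes lay as near as Cd3e or nearer, and 423 as near as Cd3d or nearer. Outside the members, the genes nearest to the profile were Sri (0.014), Ndfip1 (0.019), Esyt1 (0.047), Ptk2b (0.053) and Fxyd5 (0.054). Sri encodes the calcium-binding protein sorcin, and its level was 117, 124 and 115 CPM in cage 1 and 69.3, 98.0 and 79.6 CPM in cage 2. Ndfip1, an adaptor of ubiquitin ligases, had 323, 329 and 321 CPM and 187, 265 and 210 CPM. These genes were picked for their nearness, so their order over the libraries is a description of that choice.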

How the data were processed

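The authors deposited raw read counts per gene, 1 table per library of a stranded total RNA kit, per the labels' protocols. The tools Trimmomatic 0.39, HISAT2 2.1.0, HTSeq and DESeq2 and the build mm10 appear, per the submitters' processing notes, without their order or settings. No source used here gives the annotation release or the strand setting. Rows without a gene were kept out of library totals; as shares of all records, no-feature reads made up 24.6% to 35.8%, ambiguous ones 1.43% to 2.21% and those not uniquely aligned 9.22% to 12.9%.

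Symbols and coordinates came from GENCODE M21 (54409 of 54446 identifiers matched). Genes were filtered by filterByExpr (minimum count 10, total 15), scaled by TMM and tested with edgeR 4.0.16 (R 4.3.3) for genotype, for cage with genotype as a term and for their interaction. The Benjamini-Hochberg adjustment ran over all 13172 genes, threshold 0.05. Counts of a member ranged from 454 to 10611 per library. Groups, replicates and cages came from the labels.

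The members and gene lists were chosen with earlier results of these data known. Named genes were all members, up to 4 per pathway list and comparison by smallest p, the 5 nearest profiles, Ythdf2 and Foxp3; 1 gene named by this rule is left out of the text. The Trbc1 share, ratios and motif matches are descriptions. Alternatives were DESeq2 1.42.0, limma-voom (limma 3.58.1), other scaling, filters and terms, and each library left out. The tests of genotype and of cage were checked on simulated data. The simulation took the spread of the fit with both genotype and cage and put no cage difference into the genotype data. It therefore does not cover the genotype test as run on these libraries.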

Additional observations from a re-analysis of the deposited data

Results flagged for a closer look

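For 11 of the 39 genes checked (all members and the other genes named), the libraries labelled Ythdf2 cKO lay on opposite sides of the control libraries in the 2 cages. The same count was not made over all genes tested, so these 11 have no background beside them. Outside the members, Ythdf2 and Foxp3, the 39 were picked by small p or by nearness to the members' profile. Cage 2 holds only control replicate 3, and none of the 11 passed the edgeR test of the interaction itself. Among the members these were Cd3d, with an interaction of 0.30 on the log2 scale (cage 2 minus cage 1; adjusted p = 0.63 by edgeR's quasi-likelihood test), Lck with 0.50 (adjusted p = 0.42) and Zap70 with 0.76 (adjusted p = 0.36). In these 3 genes Ythdf2 cKO replicate 1 lay below both controls of cage 1, and Ythdf2 cKO replicates 2 and 3 above control replicate 3. Trbc1 had -0.43, in the opposite direction, and the targeted gene Ythdf2 had 0.49. The adaptor gene Nck2 had 1.65 and Rasgrp1, which activates Ras, 0.65. Of the genes with the nearest profiles, Sri had 0.42, Ndfip1 0.37, Esyt1 0.53 and Ptk2b 0.29.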

How the results depend on the processing

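All 10 members stayed below 0 in the cage comparison under every alternative run, and none was called for genotype or for the interaction under any. Against 1516 genes called by cage, DESeq2 called 2349, no filter 2347, no genotype term 849, and leaving out 1 library 660 to 1233. With total gene counts in place of TMM, 647 were higher and 765 lower, against 1031 and 485, the median of all genes went from 0.013 to -0.32 and that of the members from -0.59 to -0.93. Against 5 members called, DESeq2 called 8, no filter 10 and leaving out 1 library 0 to 8, with medians of -0.85 to -0.37. For genotype, no filter called 33 genes (26 higher), and the replicate block called 0, with a member median of -0.021. To check the numbering, each library was taken as its deviation from its group's mean log2 CPM, over the genes tested. The correlations of these deviations between same-numbered libraries were 0.41 for replicate 1, -0.24 for replicate 2 and 0.55 for replicate 3. The replicate 1 libraries share cage 1 and those of replicate 3 share cage 2, whereas those of replicate 2 lie in different cages. The numbers thus follow the cage in part, and the block changed no call. For the interaction, against 6 genes, DESeq2 called 54, RLE size factors 3, total counts 30, no filter 450 and mean CPM of at least 5 left 3. The cause of these shifts was not tested.

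Genotype values near 0 turned sign. Trac became 0.015 with DESeq2 and with RLE, 0.044 with limma-voom, 0.013 with the stricter filter and 0.048 with the replicate block. With cage as a term the values were 0.021 for Cd3d, 0.20 for Cd3e, 0.16 for Cd3g, 0.15 for Cd247, 0.225 for Trac, 0.12 for Trbc2, 0.23 for Lck and 0.20 for Zap70. With total counts they were 0.040 for Cd3e, 0.087 for Cd247, 0.081 for Trac, 0.048 for Trbc2, 0.014 for Lck and 0.0042 for Zap70. Leaving out 1 library gave -0.19 to 0.21 for Cd4, -0.33 to -0.06 for Cd3d, -0.25 to 0.089 for Cd3e, -0.41 to 0.02 for Cd3g, -0.15 to 0.16 for Cd247, -0.20 to 0.25 for Trac, -0.21 to 0.14 for Trbc2, -0.30 to 0.091 for Lck, -0.30 to 0.10 for Zap70 and -0.54 to -0.17 for Lat. With 3 libraries a group, changes within the intervals given cannot be seen.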
